A study of Mus musculus with 3 samples.

Results

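T cells were 188 of the 23699 barcodes kept from dissociated mouse brainstem, 0.793% of all. A kept barcode had at least 500 unique molecular identifiers (UMIs, each counting 1 captured RNA molecule), at least 300 genes and at most 15% of its UMIs from mitochondrial genes. A kept barcode was taken as a T cell when it held at least 3 UMIs in sum of Cd3e, Cd3d, Cd3g and Trac. It also had to hold at most 1 UMI of the natural killer (NK) cell receptor genes Ncr1, Klre1 and Klra8, fewer than 30 UMIs per 10000 of the complement genes C1qa, C1qb and C1qc, and fewer than 100 per 10000 of the neutrophil genes S100a8 and S100a9. These 12 genes chose the cells, so their values are given as a description only.

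The study applied 10x Genomics 3′ single-cell RNA sequencing to the brainstem of 3 untreated mice of the strain B6(Cg)-Tyrc-2J/J. The tumour group comprised 2 libraries, tumour 1 and tumour 2, whose titles carry the word Control and number the mice separately. Those animals, 6 weeks old at the time, were injected in the brain with 100000 cells of DIPG4423, a murine diffuse midline glioma (DMG) line, and the brainstem was taken 3 weeks later. The normal group was 1 library of brainstem without tumour, for which age and sex are not given in the sources used here. The model rests on 1 implanted cell line. All mice were perfused with saline, and the tissue passed through a glass grinder, myelin removal beads and red cell lysis.

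T cells recognise peptides on major histocompatibility complex molecules through a receptor of paired alpha and beta chains, or, in a minority, of gamma and delta chains. The receptor signals through the CD3 chains; CD8 marks mainly cytotoxic cells and CD4 mainly helper and regulatory cells. Naive T cells circulate through lymphoid tissue, whereas antigen-experienced cells can enter the brain and remain there, and gliomas of the midline are known for holding few of them.

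The genes that define the cells were present in every library. Cd3e (chromosome 9, 44998740 to 45009627, minus strand, GRCm38), a signalling chain of the receptor complex, was detected in 45 of 56 T cells of tumour 1, 103 of 109 of tumour 2 and 21 of 23 of the normal library. Trac (chromosome 14, 54220521 to 54224206, plus strand), the constant part of the alpha chain, was detected in 33, 70 and 14 cells. In kept barcodes outside the T and NK cells, Cd3e was seen in 0.0737%, 0.200% and 0.0969%. The median sum of the 4 receptor genes was 6.5, 10 and 8 UMIs per T cell. The threshold had few barcodes close to it: 13 members held exactly 3 UMIs (2, 6 and 5 by library), and 9 barcodes with 2 UMIs that met every other condition stayed outside (4, 2 and 3). The NK limit kept out 9 further barcodes, the C1q limit 11 and the S100 limit 0. No T cell barcode sequence was shared between libraries, against 8 to 31 shared among all kept barcodes of a pair.

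Depth differed between the groups. Kept barcodes had a median of 9012, 11443 and 2429 UMIs in tumour 1, tumour 2 and the normal library, and T cells 3867, 5064 and 2323. The T cells summed to 325565, 795600 and 82183 UMIs, so a single cell weighs most in the normal library. All intervals below are exact Clopper-Pearson 95% intervals. For a gene seen in 0 cells the limit is 3 cells of the total and bears on cells with a UMI, not on cells expressing the gene. Both cover counting error only.

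Some barcodes that passed the rule also carried the RNA of another cell type. A barcode was called mixed when a marker list of a cell type other than T, NK or innate lymphoid cells exceeded 30 UMIs per 10000, a criterion set after seeing the data. There were 17 mixed barcodes, 5 in tumour 1, 10 in tumour 2 and 2 in the normal library, and they held 41.5%, 34.4% and 18.4% of the T cell UMIs. In 11 of them, 5 and 6 in the tumour libraries and 0 in the normal one, the list was that of glioma and glial progenitor cells (Pdgfra, Olig1, Olig2 and others). These 11 ranged from 8233 to 76988 UMIs and held 3 to 18 UMIs of the 4 receptor genes. The other 6 exceeded the list of endothelial cells (1 barcode of tumour 2, with 91137 UMIs), dendritic cells (1 of tumour 2), microglia and macrophages (2 of tumour 2 and 1 of the normal library) or neutrophils (1 of the normal library). The doublet caller Scrublet marked 5 T cell barcodes, all of them mixed. Because so few barcodes carried so many UMIs, the number of genes called among all tested is given with all T barcodes and without the mixed ones. Other levels and changes include the mixed barcodes unless their paragraph says otherwise.

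**Figure D1:**
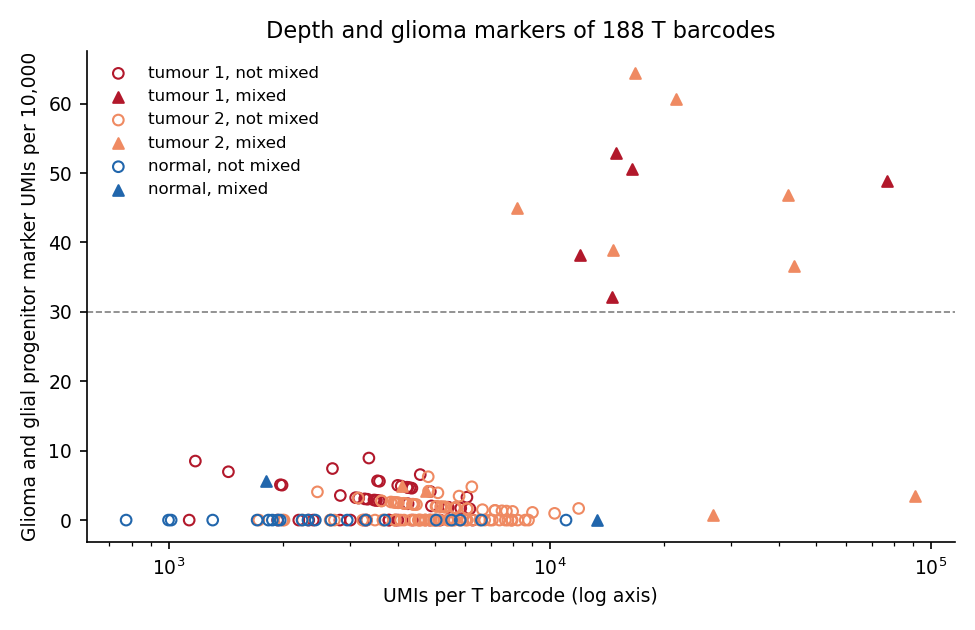
UMIs per T barcode (horizontal, log axis) against UMIs of the glioma and glial progenitor marker list per 10000 (vertical), with 1 symbol per T barcode by library, triangles for mixed barcodes; the dashed line is at 30. The 11 barcodes above the line come from the 2 tumour libraries and all hold at least 8233 UMIs, and no barcode lies between 10 and 30.

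Leaving out the mixed barcodes kept 51, 99 and 21 T cells, 171 in all. Marker lists were summed over all T barcodes. B cell list genes were found in 19 of 56, 53 of 109 and 6 of 23 T cells, mostly Ighm (15, 46 and 5 cells), with a maximum of 5.59, 12.8 and 8.26 per 10000, whereas Cd79a, Ms4a1 and Vpreb3 were at 0 in the T cells of every library. Of the basophil and mast cell list, Gata2 alone was seen, in 1 cell of tumour 2. NK list genes exceeded 30 per 10000 in 2 T cells of tumour 2 and 2 of the normal library, where 1 cell reached 207 per 10000. Neutrophil list genes were found in 2 of 56, 20 of 109 and 19 of 23 T cells, with all 8 genes of the list present in the normal library and a maximum of 3.06, 5.87 and 33.4 per 10000. Microglia and macrophage list genes were found in 52, 105 and 11 T cells, with a maximum of 24.2, 148 and 276 per 10000. The part that these RNAs play in the differences between tumour and normal T cells was not tested.

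T cells were 0.513% of kept barcodes in tumour 1 (56 of 10925, 0.387 to 0.665%), 1.13% in tumour 2 (109 of 9645, 0.929 to 1.36%) and 0.735% in the normal library (23 of 3129, 0.467 to 1.10%). The normal share lay between the tumour shares, and the interval of tumour 1 did not overlap that of tumour 2. The tumour mean was 0.821% ± 0.437 (SD, n = 2), 0.0863 percentage points above normal, and a two-sided exact permutation test over libraries gave p = 1. With 2 libraries against 1 this test cannot give less than 0.333. Without tumour 1 the difference was 0.395 points, and without tumour 2 it was -0.223 points, so the sign depended on the library.

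The share of NK cells had the same order of libraries as that of T cells, lowest in tumour 1 and highest in tumour 2, and the share of B cells did not. NK cells, taken as barcodes with at least 2 UMIs of the 3 NK genes and at most 1 of the receptor genes, were 0.0641%, 0.456% and 0.352% of kept barcodes. B cells were 0.174% in tumour 1, 0.995% in tumour 2 and 5.82% in the normal library. There were thus 8, 2.48 and 2.09 T cells per NK cell, and 2.95, 1.14 and 0.126 T cells per B cell. The number of T cells per B cell was higher in each tumour library than in the normal one; for the underlying B cell share the two-sided exact permutation test gave p = 0.333, the least that 2 libraries against 1 allow.

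**Figure D2:**
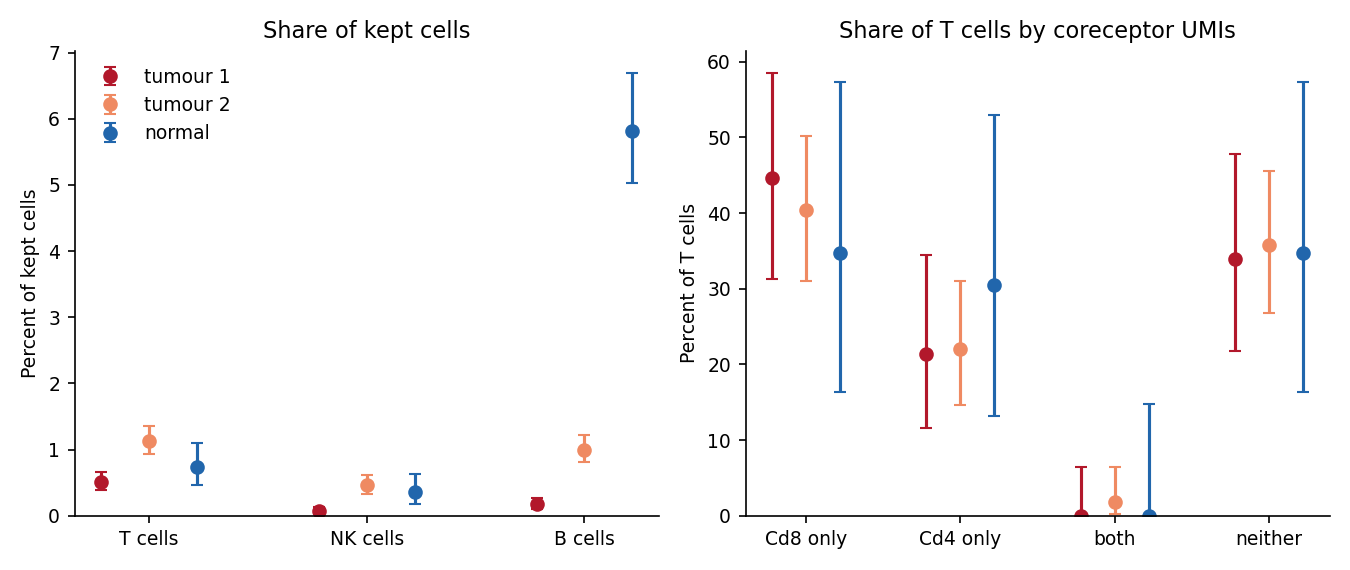
Left, T, NK and B cells as percent of kept barcodes in each library; right, T cells by their coreceptor UMIs as percent of T cells. Points are single libraries and bars are exact 95% intervals; the T cell share of the normal library lies between those of the tumour libraries, and the coreceptor intervals overlap across libraries.

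Constant segments of the beta chain were detected in most T cells. Trbc2 (chromosome 6, 41546730 to 41548352, plus strand), a constant segment of the beta chain, was detected in 49 of 56 T cells of tumour 1, 95 of 109 of tumour 2 and 20 of 23 of the normal library. Trbc1, the alternative constant segment, was detected in 27, 53 and 15 cells. Only 2, 5 and 0 cells showed neither. These counts do not by themselves separate alpha beta from gamma delta T cells. In tumour 2, 8 cells held the delta chain gene Trdc without Trac, more than the 5 without a beta segment. Because both segments are near-identical copies, cells with UMIs of both (22, 44 and 12) cannot be taken as cells with 2 beta chains.

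Variable segments of the receptor were sparsely covered, as is usual for libraries primed at the 3′ end. A Trbv segment was seen in 9, 17 and 6 cells, spread over 8, 11 and 4 different segments. The most frequent were Trbv13-1 in 2 cells of tumour 1, Trbv2 and Trbv3 in 3 cells each of tumour 2, and Trbv13-2 in 3 cells of the normal library. No T cell held UMIs of 2 different Trbv segments, and at this coverage clones could not be followed.

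Gamma or delta receptor genes were seen in a minority of the T cells of every library. Trdc or a gamma constant gene (Tcrg-C1, Tcrg-C2 or Tcrg-C4, which are similar copies) was detected in 6 of 56, 18 of 109 and 6 of 23 cells, and Tcrg-C1 in 3, 10 and 1. Trdc (chromosome 14, 54142851 to 54148868, plus strand), the constant segment of the delta chain, was detected in 0 of 56 cells of tumour 1, which allows a share of cells with a UMI of up to 5.36%, in 9 of 109 cells of tumour 2 (8.26%, 3.85 to 15.1%) and in 2 of 23 of the normal library (8.70%, 1.07 to 28.0%). Among the 9 cells of tumour 2, 6 also held Trdv4, a delta variable segment, 7 held Tcrg-C1, 5 held Cd163l1, a scavenger receptor family gene typical of mouse gamma delta T cells, and 5 held Cxcr6. Trac was detected in 1 of these 9 and Cd8a, Cd8b1 or Cd4 in 0. Without the mixed barcodes 7 of the 9 remained, of which 4 held Trdv4, 5 Tcrg-C1, 3 Cd163l1 and 4 Cxcr6. The 2 Trdc cells of the normal library held 1 UMI each and no Trdv4, Tcrg-C1 or Cd163l1. Trdc was also detected in 10 of 44 NK cells of tumour 2, and in 0.239%, 0.190% and 0.226% of other kept barcodes. Il17a, a cytokine of some gamma delta T cells, had no UMI in any T cell.

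T cells were grouped by the UMIs of the coreceptor genes Cd8a (chromosome 6, 71373427 to 71379173, plus strand), Cd8b1 (chromosome 6, 71322788 to 71337494, plus strand) and Cd4 (chromosome 6, 124864692 to 124888221, minus strand). Cells with a Cd8 gene only were 25 of 56 in tumour 1 (44.6%, 31.3 to 58.5%), 44 of 109 in tumour 2 (40.4%, 31.1 to 50.2%) and 8 of 23 in the normal library (34.8%, 16.4 to 57.3%). Cells with Cd4 only were 12 (21.4%, 11.6 to 34.4%), 24 (22.0%, 14.6 to 31.0%) and 7 (30.4%, 13.2 to 52.9%). The intervals overlapped throughout. Cells with both were 0, 2 and 0, and 33.9%, 35.8% and 34.8% showed neither.

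The tumour mean minus the normal value was 7.72 points for Cd8 only and -8.71 points for Cd4 only, each with p = 0.333 in the two-sided exact permutation test, the least it can give. The tumour libraries were close to each other, at 42.5% ± 3.02 and 21.7% ± 0.417 (SD, n = 2). When each cell was thinned to 1000 UMIs, leaving out 1 shallower cell of the normal library, Cd8-only cells were 35.7%, 30.3% and 27.3%, and Cd4-only cells were 5.36%, 7.34% and 22.7% (3 of 56, 8 of 109 and 5 of 22 cells). The share without either coreceptor therefore depended on depth. Cd4 at these depths rested on 17, 53 and 10 UMIs in all.

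Foxp3 (chromosome X, 7573644 to 7595245, plus strand), the defining transcription factor of regulatory T cells, was detected in 4 of 109 T cells of tumour 2 (3.67%, 1.01 to 9.13%), with 27 UMIs. It was detected in 0 of 56 cells of tumour 1 and 0 of 23 of the normal library, which allow shares of cells with a UMI of up to 5.36% and 13.0%. The limits include the tumour 2 share, so a difference in cells with a Foxp3 UMI was not detectable with these numbers of cells. Of the 4 cells, 3 held Il2ra, 3 held Ctla4, 3 held Ikzf2 and 3 held Cd4, all genes of regulatory T cells. Without the mixed barcodes 3 of the 4 cells remained, and each of these genes was found in 2 of them.

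Genes of naive and central memory cells were widespread. At least 1 of the 12 genes on that list was found in 56 of 56, 109 of 109 and 20 of 23 T cells, against 72.5%, 72.3% and 65.8% of other kept barcodes. Il7r (chromosome 15, 9505788 to 9530176, minus strand), the interleukin-7 receptor that sustains resting T cells, was detected in 47 of 56 cells of tumour 1 (83.9%), 96 of 109 of tumour 2 (88.1%) and 15 of 23 of the normal library (65.2%), against 3.19%, 5.93% and 10.2% of other kept barcodes. Lef1 and Tcf7, transcription factors of naive and memory T cells, were detected in 36, 75 and 10 and in 33, 73 and 8 cells. Klf2, which drives the genes for exit from tissue, was detected in 40, 80 and 10 cells. The normal library had the lowest share for all 4 genes, and its T cells also had the fewest UMIs per cell. Thinned to 1000 UMIs per cell, Il7r was detected in 64.3%, 67.0% and 54.5%, Lef1 in 33.9%, 32.1% and 13.6%, and Klf2 in 48.2%, 33.0% and 13.6% of T cells. For Tcf7 the thinned shares were 25.0%, 19.3% and 27.3%, highest in the normal library, which goes against the unthinned order.

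Ccr7, the receptor that guides T cells into lymph nodes, was detected in 27 (48.2%), 37 (33.9%) and 4 cells (17.4%). Thinned to 1000 UMIs, Ccr7 was detected in 17.9%, 9.17% and 13.6% of T cells, an order that differs from that of the unthinned shares.

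A second group of cells carried chemokine and cytotoxic genes. Ccl5 (chromosome 11, 83525778 to 83530518, minus strand), a chemokine of memory and effector T cells, was detected in 16 of 56 (28.6%), 41 of 109 (37.6%) and 10 of 23 T cells (43.5%), with summed levels of 1908, 1527 and 1606 CPM (UMIs of the gene per 1000000 UMIs of the summed T cells). The levels differed less between libraries than the shares. Nkg7, a granule protein, was detected in 23, 56 and 14 cells, and the NK receptor gene Klrd1 in 14, 38 and 11.

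Most Ccl5 cells also held Nkg7: 14 of 16 in tumour 1, 35 of 41 in tumour 2 and 8 of 10 in the normal library. All cells with Gzmk, a granzyme of memory CD8 T cells, held Ccl5 (3, 11 and 1 cells).

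The killing genes proper were rare. Gzma was detected in 0, 1 and 1 T cells, with all 20 UMIs of the normal library in 1 cell, Gzmb in 4, 5 and 1, and Prf1 (perforin) in 4, 12 and 0. Ifng, the gene of interferon gamma, was detected in 1, 2 and 0 cells. In NK cells of the same libraries Gzma was detected in 5 of 7, 32 of 44 and 8 of 11.

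The tissue residency list holds 10 genes, Ccl5 among them. Without thinning, at least 1 was found in 41 of 56 (73.2%), 82 of 109 (75.2%) and 15 of 23 T cells (65.2%). In other kept barcodes the shares were 73.9%, 83.2% and 41.9%. With barcodes thinned to equal depth as above, the T cell shares were 41.1%, 54.1% and 54.5% (22 cells in the normal library). In other kept barcodes the thinned shares were 25.8%, 33.8% and 24.8%, below the T cell share in every library. Cxcr6 (chromosome 9, 123806475 to 123811760, plus strand), a chemokine receptor of tissue-resident T cells, was detected in 10 of 56 (17.9%, 8.91 to 30.4%), 30 of 109 (27.5%, 19.4 to 36.9%) and 10 of 23 cells (43.5%, 23.2 to 65.5%). The intervals of tumour 1 and the normal library overlapped. Of the Cxcr6 cells 6, 22 and 6 held Ccl5. Itgae, the CD103 integrin of resident cells, was seen in 4, 13 and 0 cells, and Cd69, an activation and retention gene, in 21, 51 and 4.

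At least 1 of 14 genes on the list of inhibitory receptors and exhaustion was found in 27 of 56 (48.2%), 63 of 109 (57.8%) and 12 of 23 T cells (52.2%), against 82.8%, 87.2% and 47.2% of other kept barcodes. Tox, a transcription factor of exhausted T cells, was detected in 10, 19 and 4 T cells, Btla, an inhibitory receptor of lymphocytes, in 6, 18 and 4, and Cd160, a receptor of cytotoxic lymphocytes, in 5, 12 and 4. The checkpoint receptors proper were each seen in fewer cells. Pdcd1 (PD-1) was detected in 3 of 56, 6 of 109 and 1 of 23 cells, Ctla4 in 3, 6 and 2, and Tigit in 2, 0 and 1. Other kept barcodes held Pdcd1 in 0.783%, 4.94% and 0.323%, so the share of tumour 2 T cells (5.50%) was close to that of other barcodes. Lag3 was detected in 2, 3 and 1 T cells and Havcr2 in 1, 2 and 0, shares below those of other kept barcodes in each library (for Lag3 13.7%, 29.9% and 5.20%, for Havcr2 28.4%, 45.2% and 13.6%). Pdcd1 and Lag3 were found together in 1 T cell, of tumour 1.

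Proliferation genes, counted without thinning, were seen in a minority of T cells. Mki67 or Top2a was detected in 6, 18 and 5 T cells (10.7%, 16.5% and 21.7%), against 35.5%, 31.1% and 10.4% of other kept barcodes, which include cells of other types. Mki67 alone was detected in 6, 8 and 3 T cells (10.7%, 7.34% and 13.0%), and in 3, 4 and 3 after leaving out the mixed barcodes, against 25.7%, 21.9% and 9.24% of other kept barcodes. Rag1, which rearranges receptor genes in thymocytes, had no UMI in any T cell.

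**Figure D3:**
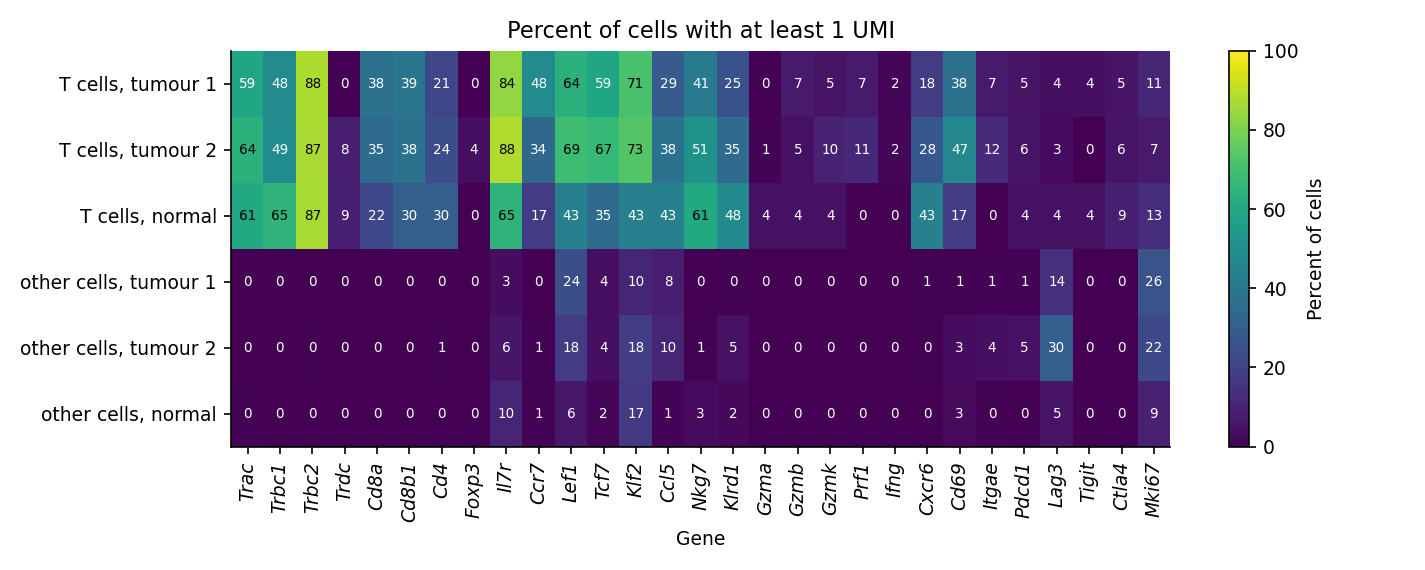
Percent of cells with at least 1 UMI, without thinning (colour and number, rounded to whole percent), for 29 genes (columns) in the T cells of each library and in all other kept barcodes outside T and NK cells (rows). Receptor, coreceptor, naive and Ccl5 columns stand out in T cells, whereas Lag3 and Mki67 reach shares in other barcodes as high as or higher than in T cells of the tumour libraries.

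Tumour T cells were compared with normal T cells on UMI counts summed over the T cells of each library, with edgeR's quasi-likelihood test and Benjamini-Hochberg adjustment over all genes tested. The question is how T cells in a DMG-bearing brainstem differ from those of a normal one. Of 6671 genes tested, 389 had an adjusted p below 0.05 (5.83%), 293 higher (4.39%) and 96 lower (1.44%) in tumour. Without the mixed barcodes, 150 of 3983 were called (3.77%), 105 higher (2.64%) and 45 lower (1.13%), and 45 and 28 genes outside the rule were called in the same direction in both fits. Only the tumour pair informs the spread here, and the normal library is assumed to vary like them. edgeR pooled that spread over genes, so a small p-value can go with tumour libraries that differ for the gene itself.

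With all barcodes, most of the higher genes were no more abundant in T cells than in other barcodes; without the mixed ones, most were more abundant in T cells (93 of 105). Of the 292 genes higher with all barcodes and outside the rule, 241 were not above their level in other kept barcodes, among them Ptn, Cspg5 and Pdgfra, genes of glial progenitors, and 150 had no UMI in normal T cells. The largest changes by the naming rule included Cldn5, Ccn2, Apln, Egfl7, Angpt2 and Pdgfb, genes of endothelial cells. Their UMIs in tumour 2 came mostly from 1 barcode per gene: for Cldn5 94.3% of 212 UMIs, and for Ccn2 97.7% of 175.

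The lower genes likewise leaned on single cells. Of 93 outside the rule, 43 had over 50% of their UMIs in 1 cell. F13a1, a macrophage gene, had all of its 34 UMIs in 1 mixed normal barcode and none in tumour T cells. Plac8 was at 27.6, 83.0 and 730 CPM, with 80% of the normal UMIs in 1 cell, and Ccr2, a monocyte and T cell chemokine receptor, at 21.5, 37.7 and 341 CPM, with 82.1% in 1 cell. Both lost the call without the mixed barcodes (adjusted p = 0.65 and 0.77, edgeR). Gzma (log2 change -5.76 ± 0.77 SE, adjusted p = 5.6e-11) was a single normal cell.

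**Figure D4:**
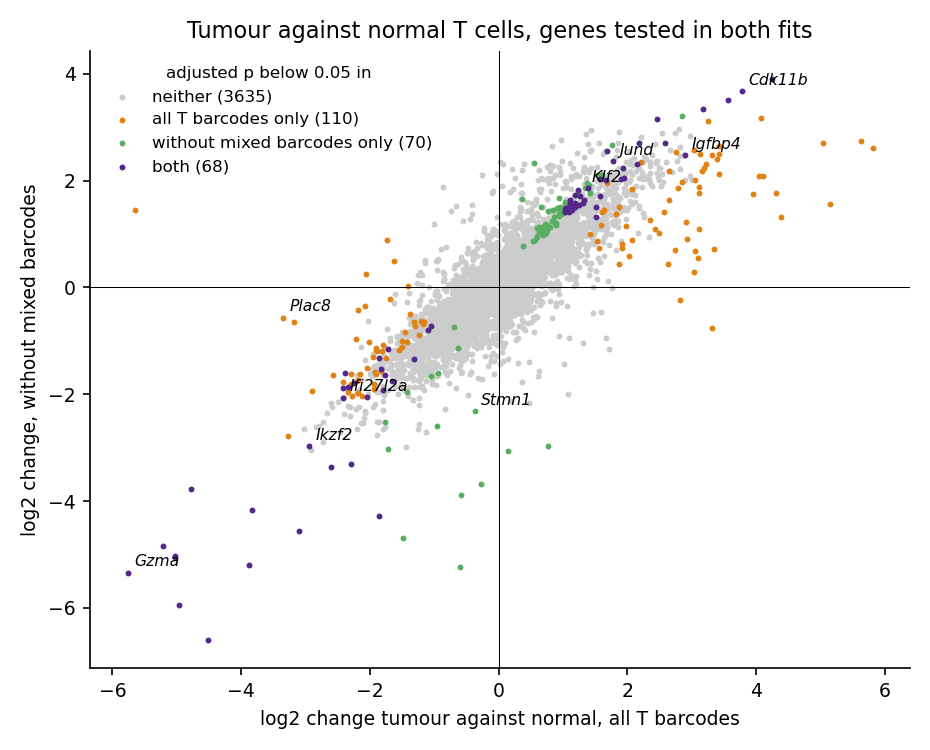
Fitted log2 change of tumour against normal T cells with all T barcodes (horizontal) and without mixed barcodes (vertical), 1 dot for each of the 3883 genes tested in both fits that had UMIs in both groups without the mixed barcodes; colour shows where the adjusted p was below 0.05. Of these genes 68 were called in both fits, 110 with all barcodes only and 70 without mixed barcodes only.

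A part of the naive and central memory list was higher in tumour T cells. All 12 genes of that list were tested; 1 was called higher with all barcodes (Igfbp4) and 4 without the mixed ones (Igfbp4, Il7r, Klf2 and Lef1), and 0 were lower in either. The list's median log2 change was 0.72 and 1.05, beside 0.18 and 0.08 over all genes tested.

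Without mixed barcodes Il7r was at 1595 CPM in tumour 1, 1495 in tumour 2 and 656 in normal T cells. Both tumour values lay above the normal one, with a log2 change of 1.56 ± 0.33 (SE, adjusted p = 0.00011, edgeR); with all barcodes it was 1.03 ± 0.39 (adjusted p = 0.098). Klf2 was at 682, 611 and 224 CPM, a log2 change of 1.85 ± 0.43 (adjusted p = 0.00086; 0.061 with all barcodes). Lef1 was at 436, 370 and 164 CPM, a change of 1.61 ± 0.48 (adjusted p = 0.024; 0.18 with all barcodes). The tumour libraries were close to each other for all 3 genes. Igfbp4 rested on 3 normal UMIs in 2 cells, a ratio of 4.05 (counting interval 1.35 to 19.9) without mixed barcodes, and its levels in other kept barcodes were 217, 138 and 30.7 CPM. Ccr7 and Tcf7 did not pass, with log2 changes of 1.25 ± 0.63 and 0.31 ± 0.42 without mixed barcodes.

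Stress and early response genes were partly higher. Of 20 genes on the immediate early and dissociation stress list, 16 and 14 were tested, 2 were called higher in both fits (Jund and Jun) and 0 lower. Jund, a subunit of the AP-1 transcription factor, was at 353, 289 and 110 CPM, a log2 change of 1.78 ± 0.53 (adjusted p = 0.020; 0.0011 without mixed barcodes). Jun, another AP-1 subunit, was detected in 15, 29 and 0 T cells, at least 2.86-fold higher in tumour against 3 UMIs over the normal T cells. Both genes were common in other barcodes, where Jun was found in 63.0%, 67.1% and 17.1%.

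Interferon response genes were lower in part with all barcodes, and without the mixed ones only Ifi27l2a was. Of 17 tested, 4 were called lower with all barcodes (among them Ifi27l2a, Ly6c2 and Rtp4) and 0 higher. Without mixed barcodes 1 of 16 was called lower. The list's median log2 change was -0.81 beside 0.18 over all genes tested, and 0.13 beside 0.08 without mixed barcodes. Ifi27l2a (chromosome 12, 103442167 to 103443680, minus strand), an interferon-induced gene of the mitochondrial membrane, was at 49.1 CPM in tumour 1, 221 in tumour 2 and 913 in normal T cells, detected in 13 of 56, 39 of 109 and 11 of 23. The groups did not overlap, and the tumour libraries also differed from each other. The log2 change was -2.42 ± 0.39 (adjusted p = 1.1e-07) and -2.06 ± 0.34 (adjusted p = 1.3e-07) without mixed barcodes, but the adjusted p was 0.51 with DESeq2. In other kept barcodes the gene followed the same order, at 23.1, 65.4 and 258 CPM.

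Ikzf2 (chromosome 1, 69531214 to 69687245, minus strand), the transcription factor Helios of regulatory and some innate-like T cells, was at 21.5, 54.0 and 377 CPM. It was found in 5 of 56, 12 of 109 and 6 of 23 cells, and 54.8% of the normal UMIs came from 1 cell. The log2 change was -2.94 ± 0.49 (adjusted p = 3.6e-07), and -2.97 ± 0.47 (adjusted p = 4.7e-08) without mixed barcodes. It was the only called gene of 6 tested on the regulatory T cell list.

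Of the cell cycle list, Hmgb2, a chromatin protein, was at 267, 269 and 791 CPM, a log2 change of -1.31 ± 0.39 (adjusted p = 0.018), and -1.33 ± 0.35 (adjusted p = 0.0054) without mixed barcodes. Stmn1, which regulates microtubules, was at 47.2, 44.1 and 283 CPM without mixed barcodes, a change of -2.31 ± 0.54 (adjusted p = 0.0011), against -0.37 ± 0.49 (adjusted p = 0.75) with all. In the normal library 52.6% of the Stmn1 UMIs came from 1 of 4 cells. With all barcodes 10 genes of the list were tested and Hmgb2 alone was called. Other kept barcodes held Hmgb2 at 475, 448 and 1221 CPM.

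Genes outside the lists that were called in both fits included Arid5a and Bbc3. Arid5a, an RNA-binding protein that stabilises inflammatory transcripts, was detected in 17 of 56 and 37 of 109 tumour T cells and in 0 of 23 normal ones. It was at least 2.10-fold higher, and at least 2.32-fold without mixed barcodes, against 3 UMIs over the normal T cells. Bbc3, the cell death gene of the protein PUMA, was at least 1.61-fold higher by the same bound (16, 33 and 0 cells). Cdk11b, a kinase of transcription and splicing, had 44, 121 and 1 UMIs, a ratio of 12.1 (counting interval 2.14 to 481). Zfas1, a host gene of small nucleolar RNAs, had 41, 99 and 1 UMIs, a ratio of 10.3 (1.81 to 408). These folds rest on 0 or 1 normal UMI each.

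Trafficking receptors and integrins were lower in part, with all barcodes alone. Of 17 tested, 3 were called lower (Itgal, Itgb2 and Ccr2) and 0 higher, with a median log2 change of -0.69 beside 0.18 over all genes; without mixed barcodes 0 of 16 were called, at a median of -0.36 beside 0.08, with 6 at an unadjusted p below 0.05. Itgal, a chain of the integrin LFA-1 of leukocytes, was at 36.9, 90.5 and 279.9 CPM, a log2 change of -1.79 ± 0.50 (adjusted p = 0.010; 0.26 without mixed barcodes). Itgb2, the other chain of LFA-1, was at 49.1, 83.0 and 329 CPM, a change of -2.01 ± 0.48 (adjusted p = 0.0017; 0.29 without mixed barcodes). Both tumour values lay below the normal one for each gene. In other kept barcodes Itgal and Itgb2 followed the same order, Itgal at 9.10, 29.9 and 75.6 CPM and Itgb2 at 52.3, 108 and 244.

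Of the cytokine receptors, 0 of 11 were called with all barcodes (3 at an unadjusted p below 0.05, edgeR), and 2 of 10 were higher without the mixed ones, Il7r and Ifngr1. Ifngr1, a chain of the interferon gamma receptor, was then at 399, 556 and 194 CPM, a log2 change of 1.65 ± 0.45 (adjusted p = 0.0098), against 0.36 ± 0.43 (adjusted p = 0.72) with all barcodes.

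The coreceptor genes Cd8a and Cd4 did not pass (log2 changes -0.03 ± 0.51 and -0.75 ± 0.60), nor did Ccl5 (0.33 ± 0.35) or Cxcr6 (-1.32 ± 0.54, adjusted p = 0.13). Of 12 cytotoxic genes tested Gzma alone was called, and of 6 inhibitory receptor genes 0. The helper cytokine list had 0 genes tested. Trbc1 was called lower with all barcodes alone. In all, 16 of 156 list genes tested were called (10.3%, 3 higher, 13 lower), beside 5.83% of all genes tested. Without mixed barcodes 12 of 133 were called (9.02%, 7 higher, 5 lower), beside 3.77%.

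These calls were fragile. With at least 2 receptor UMIs in place of 3, which added 9 barcodes, 2 genes were called higher and 8 lower, and without the Scrublet doublets 13 and 15. Arid5a, Jund, Igfbp4, Ifi27l2a, Ikzf2 and Hmgb2 each lost the call under both of these settings.

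T cells were then set beside NK cells, the cells most like them, in tumour 2 (109 T, 44 NK) and the normal library (23 T, 11 NK), with the library as a block because both sums come from the same animal. Tumour 1 had only 7 NK cells and was left out. Since the 2 kinds were separated by their receptor genes, genes that accompany those receptors differ partly by that choice, and the values below describe how far the split extends. Of 3540 genes tested, 121 were called (3.42%), 43 higher (1.21%) and 78 lower (2.2%) in T cells. Without mixed barcodes 111 of 2652 were called (4.19%), 44 higher (1.66%) and 67 lower (2.53%), and outside the gates 35 and 47 genes were the same. Without the block 9 and 8 were called.

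Genes of the T cell receptor complex were higher in T cells: 7 of 14 tested, and 0 lower. Trbc2 was at 837 CPM in T cells and 70.1 in NK cells of tumour 2, and at 1278 and 168 in the normal library, a log2 change of 3.45 ± 0.41 (adjusted p = 1.7e-05). Cd5, an inhibitor of receptor signalling, and Themis, a thymocyte selection gene, were found in T cells of both libraries and had no UMI in NK cells, at least 12.2-fold and 11.9-fold higher against 3 UMIs over the NK cells. Cd28, the costimulatory receptor, had 107 UMIs in T cells and 3 in NK cells, a ratio of 15.0 (counting interval 5.00 to 74.0).

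The coreceptors Cd8b1, Cd8a and Cd4 had no UMI in NK cells and were at least 38.3-fold, 15.6-fold and 8.85-fold higher. Bcl11b (chromosome 12, 107910403 to 108003602, minus strand), a transcription factor that holds T cell identity, had 243 UMIs against 3, a ratio of 34.1 (11.5 to 167), and was found in 33 of 56, 87 of 109 and 10 of 23 T cells. Klk8, a serine protease gene, was found in 16, 53 and 5 T cells and in 1 NK cell of tumour 2, a ratio of 39.2 (6.86 to 1564). Slfn1, linked to T cell quiescence in mice, had 155 UMIs against 2, a ratio of 32.6 (8.89 to 272).

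Il7r was at 1100 CPM in T cells and 82.3 in NK cells of tumour 2, and at 608 and 216 in the normal library, a log2 change of 3.02 ± 0.49 (adjusted p = 0.0005). Tcf7 was higher by 2.36 ± 0.57 (adjusted p = 0.022) and Cxcr6 by 2.93 ± 0.72 (adjusted p = 0.023). Cxcr6 was at 84.2 CPM in T cells against 12.2 in NK cells of tumour 2, and at 195 against 24.0 in the normal library. On the naive and central memory list 3 of 11 genes were higher, and 5 of 10 without mixed barcodes. Ccr7 was among the 5 (adjusted p = 0.0038, against 0.92 with all barcodes, edgeR). However, Ccr7 is itself on the dendritic cell list used to define mixed barcodes. All 24 of its UMIs in NK cells of tumour 2 were in 1 barcode, left out as mixed, so this call is not an independent result.

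Cytotoxic genes were lower in T cells: 9 of 14 tested, and 0 higher. Gzma (chromosome 13, 113093825 to 113100981, minus strand), the granzyme most abundant in NK cells, was at 5.03 CPM in T cells and 2311 in NK cells of tumour 2, and at 243 and 4049 in the normal library, a log2 change of -5.91 ± 0.69 (adjusted p = 1.6e-05). Prf1 was at 15.1 against 238 CPM in tumour 2 and at 0 against 288 in the normal library (-4.15 ± 0.64, adjusted p = 0.00034). For Gzmb the log2 change was -2.99 ± 0.53 (adjusted p = 0.0013).

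The log2 changes of Ccl5 and Nkg7 were smaller in size than those of the killing genes. Ccl5 was at 1527 CPM in T cells against 3491 in NK cells of tumour 2 and at 1606 against 3402 in the normal library (log2 change -1.02 ± 0.28, adjusted p = 0.049; 0.51 without mixed barcodes), and Nkg7 did not pass (-1.18 ± 0.35, adjusted p = 0.087). NK receptor genes outside the gate were among the largest differences: Klra4 had 118 UMIs in NK cells and none in T cells of these libraries, at least 93.4-fold lower, and Klri2 60 and none, at least 47.5-fold lower. Hspa1b, a heat shock gene, had 5019 UMIs in NK cells of tumour 2, all in 2 cells. Over all lists, 40 of 126 genes tested were called (31.7%, 19 higher, 21 lower), beside 3.42% of all genes tested.

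Among themselves T cells were compared by coreceptor, Cd8-only against Cd4-only cells, in tumour 1 (25 and 12 cells) and tumour 2 (44 and 24 cells), with the library as a block. The normal library, with 8 and 7 cells, was left out. Of 2674 genes tested, 78 were called (2.92%), 68 higher in Cd8 cells (2.54%) and 10 lower (0.374%). Without mixed barcodes 19 of 1501 were called (1.27%), 16 higher (1.07%) and 3 lower (0.2%), and outside the gates 3 and 2 genes were the same. Without the block 10 and 1 were called. Of the 66 higher genes outside the gates, 28 had over 50% of their UMIs in 1 cell and 47 were not above their level in other kept barcodes. Mpzl1, Rab13, Rhoj, Cd93 and Col4a1 each had 70.8% to 100% of their UMIs in the Cd8 cells of a tumour library in 1 cell. Cd93, a receptor of endothelial and myeloid cells, had 105 UMIs in Cd8 cells of tumour 2, all in 1 cell.

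Chemokine and granule genes were higher in Cd8 cells in both fits. Ccl5 was at 2691 and 2795 CPM in Cd8 cells of tumour 1 and tumour 2, and at 0 and 948 in Cd4 cells, found in 13 of 25 and 24 of 44 against 0 of 12 and 6 of 24. The groups did not overlap, with a log2 change of 2.78 ± 0.39 (adjusted p = 1.6e-09; 2.60 ± 0.36 and 0.00022 without mixed barcodes). In tumour 2 alone the change was 1.64. Nkg7 was at 269 and 492 CPM against 0 and 195, found in 20 of 25 and 38 of 44 against 0 of 12 and 4 of 24, a log2 change of 1.94 ± 0.53 (adjusted p = 0.013; 0.021 without mixed barcodes). Ly6c2, a surface gene of memory CD8 T cells, was higher by 2.33 ± 0.60 (adjusted p = 0.0065). Klrd1 passed without mixed barcodes alone (3.38 ± 0.64, adjusted p = 0.0072). Ccl5, Nkg7 and Ly6c2 lost the call with DESeq2 and without the block. In the normal library Ccl5 was found in 3 of 8 Cd8 and 3 of 7 Cd4 cells.

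In the other direction, S1pr4, a sphingosine phosphate receptor of lymphocytes, was at 19.9 and 22.6 CPM in Cd8 cells and at 106 and 160 in Cd4 cells, a log2 change of -2.57 ± 0.68 (adjusted p = 0.009; 0.033 without mixed barcodes). Tspan32, a tetraspanin of blood cells, was at 34.9 and 22.6 against 426 and 90.6 CPM (-2.72 ± 0.57, adjusted p = 0.00026; 0.04 without mixed barcodes). Neither group pair overlapped. Il7r was at 493 and 910 against 1916 and 1596 CPM (-1.26 ± 0.37, adjusted p = 0.025; 0.075 without mixed barcodes), and Cd28 (-1.78 ± 0.47, adjusted p = 0.0097) and Satb1, a chromatin organiser of T cells (-1.58 ± 0.44, adjusted p = 0.013), were also called with all barcodes alone. Tspan32, Il7r, Cd28 and Satb1 lost the call with DESeq2 and without the block, and S1pr4 lost it without the block and had no adjusted p from DESeq2, which called 0 genes lower, with 89 genes in both directions at an unadjusted p below 0.05. Ccr7 did not pass, with a log2 change of -0.18 ± 0.54.

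**Figure D5:**
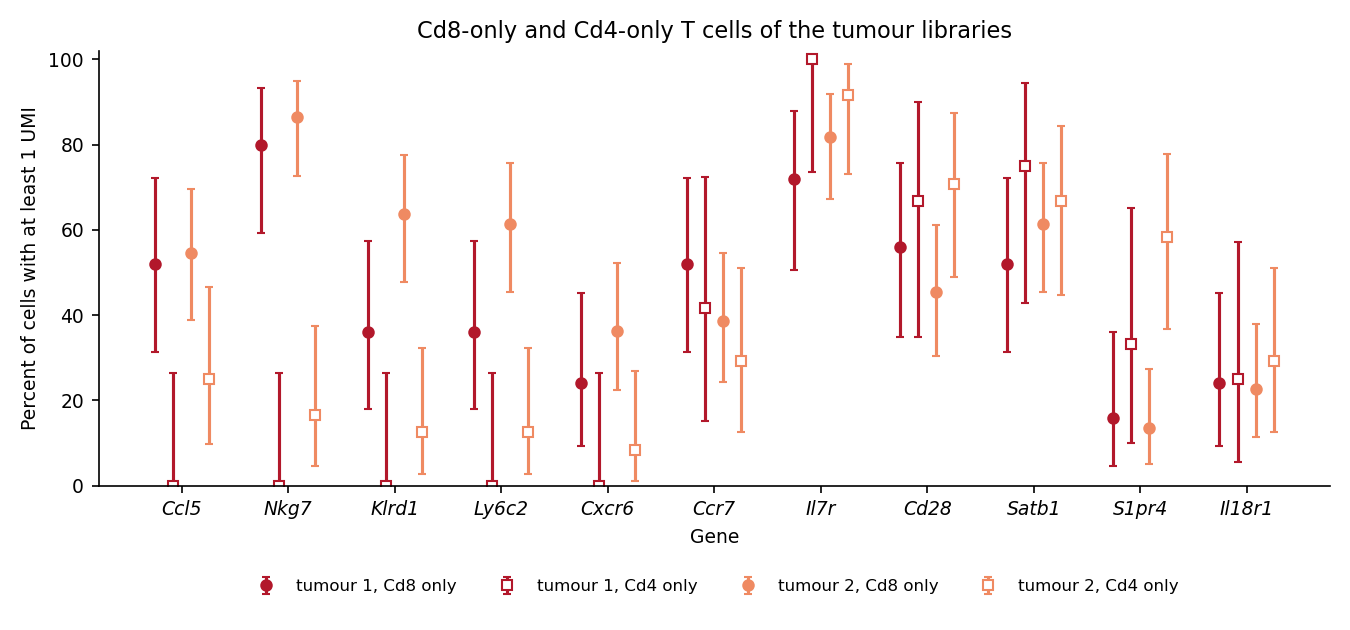
Percent of cells with at least 1 UMI (vertical) for 11 genes (horizontal) in Cd8-only (filled) and Cd4-only (open) T cells of the 2 tumour libraries, with exact 95% intervals. Ccl5, Nkg7, Klrd1, Ly6c2 and Cxcr6 were found in no Cd4-only cell of tumour 1 and in at most 6 of 24 of tumour 2.

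By list, 2 of 5 cytotoxic genes tested were higher in Cd8 cells (Ccl5 and Nkg7), 3 of 4 without mixed barcodes, and 2 of 12 naive and central memory genes were lower (Il7r and Satb1), 0 of 11 without. Over all lists 10 of 95 genes tested were called (10.5%, 5 higher, 5 lower), beside 2.92% of all genes tested. Without mixed barcodes 5 of 82 were called (6.1%, 4 higher, 1 lower), beside 1.27%.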

How the data were processed

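The deposited files were feature, barcode and matrix files with raw UMI counts per gene and barcode. Per the file headers they came from Cell Ranger 6.1.2, and per the submitters' processing notes the build was mm10. Each library had 32285 features. Barcodes were filtered and gated in Python 3.11.15. Doublets were called with Scrublet in scanpy 1.11.5 (expected rate 8%) and kept. Counts were summed per library over sets of at least 10 cells and tested with edgeR 4.0.16 in R 4.3.3 (filterByExpr, TMM, glmQLFit and glmQLFTest, adjusted p below 0.05), with DESeq2 1.42.0 as an alternative. CPM is per 1000000 UMIs of the summed cells. T and NK sums, and Cd8 and Cd4 sums, of 1 library come from the same animal, so the library pairs them and was the block. Tumour and normal libraries are not paired. The p-values take in only these libraries, and edgeR pooled the spread between them over genes. For tumour against normal and for Cd8 against Cd4 cells this pooling was complete at the median gene. A gene's own spread between libraries therefore hardly entered its p-value there. Outside the lists, named genes are the 10 largest log2 changes per direction among called genes above their level in other barcodes, without rule, mitochondrial and predicted genes. The fits were also run on counts simulated with 1 common spread for all genes and without single-cell outliers. That run does not bear on how fragile the calls are. Coordinates come from the GENCODE annotation of GRCm38, in which all 371 genes looked up were found. The T cells and gene lists were chosen with earlier results of these data known. Every file was used. Some genes of the lists are not reported here by name.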

Additional observations from a re-analysis of the deposited data

How the results depend on the processing

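Tumour against normal T cells depended most on which barcodes entered. Against 293 genes higher and 96 lower, at least 2 receptor UMIs gave 2 and 8, no Scrublet doublets 13 and 15, a stricter cell filter 91 and 43, no mixed barcodes 105 and 45 (chosen after seeing the data), and DESeq2 32 and 11. With library size alone it was 204 and 155, with the median change of all genes at -0.07 in place of 0.18. For T against NK cells (43 and 78), at least 4 receptor UMIs gave 24 and 38, DESeq2 10 and 28, and no replicate block 9 and 8. For Cd8 against Cd4 cells (68 and 10), at least 4 receptor UMIs gave 4 and 3, a stricter cell filter 5 and 2, no mixed barcodes 16 and 3, and no filter on low counts 121 and 13. DESeq2 gave 12 and 0 there, with 89 genes at an unadjusted p below 0.05, against 78 adjusted calls by edgeR, and no replicate block gave 10 and 1. The library block pairs sums of the same animal; no paired analysis was possible for tumour against normal because those libraries share no pairing. The cause of these shifts was not tested.

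Of 40 genes followed in tumour against normal, 39 lost the call with at least 2 receptor UMIs and 35 without doublets. With DESeq2, 8 lost the call, the fitted change of 12 moved and 20 stayed the same. No direction reversed under any alternative run. Thinned to 1000 UMIs, the Cd4-only share was 5.36% in tumour 1 and 7.34% in tumour 2, and the Cd8-only share of tumour 2 was 30.3%. Leaving out either tumour library put the T cell share difference between -0.2225 and 0.3951 points, that of Cd8-only cells between 5.584 and 9.86, and that of Cd4-only cells between -9.006 and -8.416. Fitted changes of followed genes also depended on single libraries. Without tumour 2 they moved for 13 genes and stayed the same for 15 in tumour against normal. In T against NK it was 20 and 12, and in Cd8 against Cd4 14 and 2. Without tumour 1 it was 4 and 35 in tumour against normal, and 8 and 14 in Cd8 against Cd4. Without the normal library it was 12 and 40 in T against NK. The stricter cell filter was not run for T against NK cells, because too few libraries held 10 cells of both, and fits without a library give values with no test.

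Depth limits what could be seen: 23 normal T cells with 82183 UMIs allow a share of cells with a UMI of up to 13.0% for a gene seen in none of them, and a cell without a UMI may still express the gene.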

Other observations

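Single genes of chemokine receptors and trafficking were also counted, without thinning. T cells of the normal library had the fewest UMIs per cell, so no difference between libraries is read from these counts. Cxcr3, a receptor for interferon-induced chemokines, was detected in 8 of 56, 28 of 109 and 7 of 23 cells. Itga4, the integrin chain that carries T cells across brain vessels, was detected in 33, 69 and 10, and S1pr1, the receptor for exit from tissue, in 28, 55 and 9.

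Lef1 or Tcf7, genes of resting cells, were found in T cells with and without Ccl5. Of the Ccl5 cells, 10 of 16 in tumour 1, 34 of 41 in tumour 2 and 2 of 10 in the normal library held Lef1 or Tcf7. Among T cells without Ccl5, 35, 58 and 12 held Lef1 or Tcf7, and 5, 10 and 1 did not. The share was thus not higher in Ccl5 cells in any library. Trgv2, a gamma variable segment, was detected in 2, 11 and 4 T cells.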
